A study of Dicosmoecus gilvipes with 20 samples.

Results

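The 57 genes described here were more abundant in caddisfly larvae at both temperature extremes, 15.5°C and 28.6°C, than at either temperature between them, 20°C or 25°C. They were chosen from the 79612 subcomponents (groups of contigs that the assembler treats as a gene) of a transcriptome assembled without a reference genome. Of these, 6990 had a mean scaled count of at least 100 at 1 or more temperatures. For each of them a gap was taken on the scale log2(scaled count + 10), as the lower of the medians at 15.5°C and 28.6°C minus the higher of the medians at 20°C and 25°C. A gap of at least 0.8 was met by 60 subcomponents, and 3 heat shock genes (those of heat shock 70 kDa protein cognate 3, of a 10 kDa and of a 60 kDa heat shock protein) were set aside by name, which left 57. Because measured values at all 4 temperatures chose the members, the contrasts between extremes and middle are given as a description without a test. Only 28.6°C against 15.5°C and 25°C against 20°C, whose direction the choice did not use, were tested. Their size was not free of the choice, since at given mean levels a larger difference within either pair lowers the gap.

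The data were RNA-seq libraries of thorax tissue from fifth-instar larvae of *Dicosmoecus gilvipes*, 5 libraries at each of 15.5, 20, 25 and 28.6°C and 20 in all. The larvae were wild, of a single population, and all were first kept in colder water in the laboratory, warmed gradually over several days and then held at the stated temperature for a day. The supplement describes the RNA of a temperature as a single pool in its library table and as independent pooled samples in its text, there too made from the same individuals. The spread between libraries is therefore taken as technical, and each test as a comparison of pools of larvae that leaves out the variation between animals. A gain in a gene's level may reflect more cells of a type or more RNA per cell, and in these bulk samples fewer cells of a type and less RNA per cell cannot be told apart.

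The T-complex protein 1 (TCP-1) ring is a chaperonin of the cytosol, built from several related subunits, that folds actin, tubulin and other proteins. Nucleolar factors process ribosomal RNA and assemble ribosomal subunits, and tRNA ligases attach amino acids to tRNAs for translation. In insects, as in other animals, chaperones are known to be induced by temperatures that damage proteins. Every temperature here was warmer than the water in which the larvae were first kept. The lowest is thus an extreme only of the range studied, and induction by cold was not tested.

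Library totals lay between 6756103 and 14236152 estimated counts. Replicates 1 and 4 at 20°C stood apart, with 44.99% and 76.99% of their counts in a subcomponent that resembles ribosomal RNA, which was left out of all values, so that 5484995 and 2485595 counts remained. The share was between 4.91% and 15.1% at 28.6°C and at most 2.45% in the other libraries. Replicates 1 and 4 at 20°C were kept here. In a supplementary figure of its assayed genes the study left out 2 samples at 20°C for divergent expression, and its caption does not say which. Libraries also fell into a set with longer mapped reads (3 libraries at 15.5°C, then 1 at 20°C, 4 at 25°C and 0 at 28.6°C) and a set with shorter ones. Without the 2 libraries at 20°C, 59 subcomponents met the rule, 50 of them among the 57. Without the long set, 56 did, 49 of them among the 57. That left 2 libraries at 15.5°C, 4 at 20°C and only 1 at 25°C, whose median is then a single value. At 25°C against 20°C the library set largely went with temperature, so the 2 are hard to tell apart in that contrast. As a check of the labelled tissue, the subcomponent of the study's troponin reference had between 18371 and 22454 scaled counts at 15.5°C, then 20488 and 25991 at 20°C, 28719 and 30956 at 25°C, and 27051 and 32499 at 28.6°C. Markers of other tissues were present too. The 42 subcomponents with gut annotations summed to between 116185 and 124679 scaled counts at 15.5°C, then 204511 and 252737 at 20°C, 86329.5 and 104459 at 25°C, and 45059.5 and 50538.1 at 28.6°C. The 5 with fat body or hemolymph storage annotations were also highest at 20°C in every library, and by far. They summed to between 177670 and 191612 scaled counts at 15.5°C, then 1.23e+06 and 1.49e+06 at 20°C, 127292 and 155866 at 25°C, and 58069 and 90129 at 28.6°C. The single subcomponent found for the muscle list, a troponin I other than the reference, had 1421 to 1485 scaled counts at 15.5°C, then 1273 to 1558 at 20°C, 877 to 1011 at 25°C, and 207 to 241 at 28.6°C, while the reference above was higher at 28.6°C than at 15.5°C. The 6 subcomponents with epidermal annotations summed to 27876 to 30787, 17016 to 19454, 6753 to 8158 and 1894 to 2535 in the same order, and the 4 with hemocyte annotations to 3384 to 3564, 2823 to 2976, 2934 to 3443 and 708 to 859. The words for silk gland and nerve found 0 subcomponents. None of the 5 lists with a match had lower sums at both middle temperatures than at both extremes, and none of their genes was a member. The part of tissue composition in the members' levels was not tested.

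The gaps of the 57 members ran between 0.81 and 1.68 with a median of 0.96, and 21 members had a gap of at least 1. In linear terms, the lower of the extreme means was between 1.64 and 3.17 times the higher of the middle means, with a median of 2.06. The median over members of the mean scaled count was 358 at 15.5°C, then 132 at 20°C, 139 at 25°C and 346 at 28.6°C. In 56 of the 57 members every library of the extremes lay above every library of the middle temperatures. Among all 6990 subcomponents of this level the share with this separation was 6.87%, and since the rule used these values nothing is read from the difference. The exception was comp62809_c3, with 64.0 scaled counts in replicate 4 at 20°C, the library of fewest counts, against 61.0 in replicate 3 at 15.5°C. The highest mean was at 15.5°C in 30 members and at 28.6°C in 27, and the lowest was at 20°C in 29 and at 25°C in 28. The threshold cut through a continuous range. The lowest gaps inside it were those of comp61343_c3 and comp60945_c0, both 0.81, and the highest outside were those of comp59423_c0 and comp62364_c0, both 0.80 and just below the limit. The median coefficient of variation between libraries was 5.23% at 15.5°C, then 9.50% at 20°C, 7.25% at 25°C and 6.87% at 28.6°C.

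**Figure D1:**
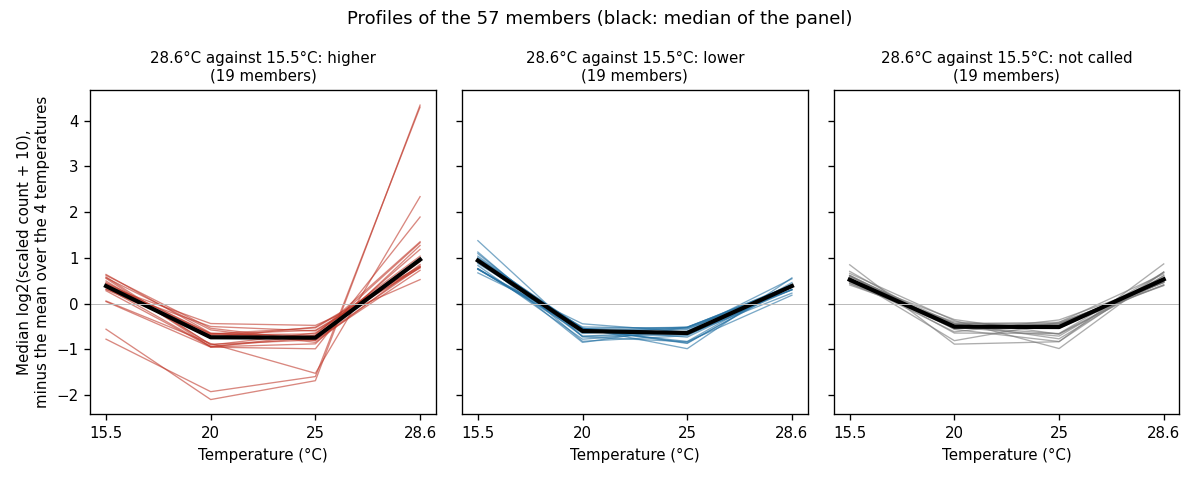
Profiles of the 57 members over temperature (°C, x axis), each as the median log2(scaled count + 10) of 5 libraries minus the mean over the 4 temperatures (y axis), in panels for members higher, lower or not called at 28.6°C against 15.5°C, 19 members each. Black lines are panel medians, and all lines are lower at 20°C and 25°C than at 15.5°C and 28.6°C, as the choice required, while 2 members rise far above the rest at 28.6°C.

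Of the 57 members, 14 carried a protein name in the deposited table of differentially expressed transcripts, and 43 had none. That table was chosen on these same libraries, so which members have names depends on how much they changed. Of the members, 26.3% had a contig in it, and of all 6990 subcomponents of this level, 12.5%. From their names, 6 of the 14 act in protein folding, 3 in the nucleolus, 1 each in translation and RNA splicing, and the rest are a muscle protein, a phosphatase and an acetyltransferase. These roles were assigned after the values had been seen and were not counted over the 452 annotated subcomponents of this level. Of the 14 named members, 11 fell in no group of annotation words that was counted, the folding and nucleolar ones among them.

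The first group was the TCP-1 chaperonin, with 4 subunits among the members. The epsilon subunit (comp60198_c0) had 2260, 2169, 2310, 2370 and 2239 scaled counts at 15.5°C, then 782, 805, 781, 810 and 796 at 20°C, 787, 720, 833, 837 and 837 at 25°C, and 3608, 3744, 3615, 4631 and 4398 at 28.6°C. The middle temperatures overlapped with each other, and the extremes lay well above them, with 28.6°C the highest in every library. The gamma subunit (comp56044_c0) averaged 1460 ± 49.8 at 15.5°C, then 534 ± 36.8 at 20°C, 595 ± 18.8 at 25°C and 2305 ± 147 at 28.6°C (SD, n = 5 each). The beta subunit (comp60603_c0) averaged 1048 ± 46.0, 442 ± 21.0, 493 ± 35.5 and 2128 ± 95.5 in the same order. The alpha subunit (comp55908_c0) averaged 1342 ± 24.0, 554 ± 35.2, 697 ± 27.4 and 2836 ± 94.9. The rule required this shape of all 4 subunits, and the gap was largest in epsilon (1.43) and smallest in alpha (0.97). Each is a single contig with only unique reads, so no assignment between contigs enters these values.

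Between the extremes, all 4 subunits were higher at 28.6°C than at 15.5°C in the quasi-likelihood test of edgeR, adjusted after Benjamini and Hochberg. The log2 fold change was 0.84 ± 0.06 for epsilon (SE, adjusted p = 4.59e-14), 0.68 ± 0.05 for gamma (adjusted p = 7.32e-14), 1.04 ± 0.05 for beta (adjusted p = 6.78e-18) and 1.10 ± 0.04 for alpha (adjusted p = 8.18e-20). Between the middle temperatures the subunits moved little. At 25°C against 20°C alpha was higher by 0.31 ± 0.05 on the log2 scale (edgeR, adjusted p = 2.70e-06), beta by 0.14 ± 0.06 (adjusted p = 0.0386) and gamma by 0.14 ± 0.05 (adjusted p = 0.0309), while epsilon was not called, at 0.005 ± 0.062 (adjusted p = 0.967). The calls of beta and gamma at 25°C were lost in 9 and 7 of 33 alternative analyses (the 4-fold criterion is not counted among the 33), among them several that left out a single library at 20°C or 25°C, and in those analyses the log2 fold changes were between 0.11 and 0.245. Those of all 4 subunits at 28.6°C were kept in each of the 33.

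A pair of further TCP-1 subunits fell below the threshold, and they were looked up after the members' values had been seen. The zeta subunit (comp55133_c0) had a gap of 0.79 and averaged 924 ± 40.5 scaled counts at 15.5°C, then 405 ± 67.9 at 20°C, 528 ± 14.7 at 25°C and 2156 ± 128 at 28.6°C (SD, n = 5 each). The eta subunit (comp62838_c0) had a gap of 0.63 and averaged 1420, 692, 845 and 5612 scaled counts in the same order. Their log2 fold changes at 28.6°C against 15.5°C were 1.24 ± 0.06 and 2.01 ± 0.09 (edgeR, adjusted p = 2.80e-17 and 1.11e-18). By their means all 6 subunits found among the annotations were lowest at 20°C and highest at 28.6°C. In epsilon the means at 20°C and 25°C were nearly equal, at 795 and 803. The rule required low middle temperatures of the member subunits, and names exist only for transcripts chosen by their change in these libraries. The share of all subcomponents with this order was not counted, so nothing is read from the shared order.

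**Figure D2:**
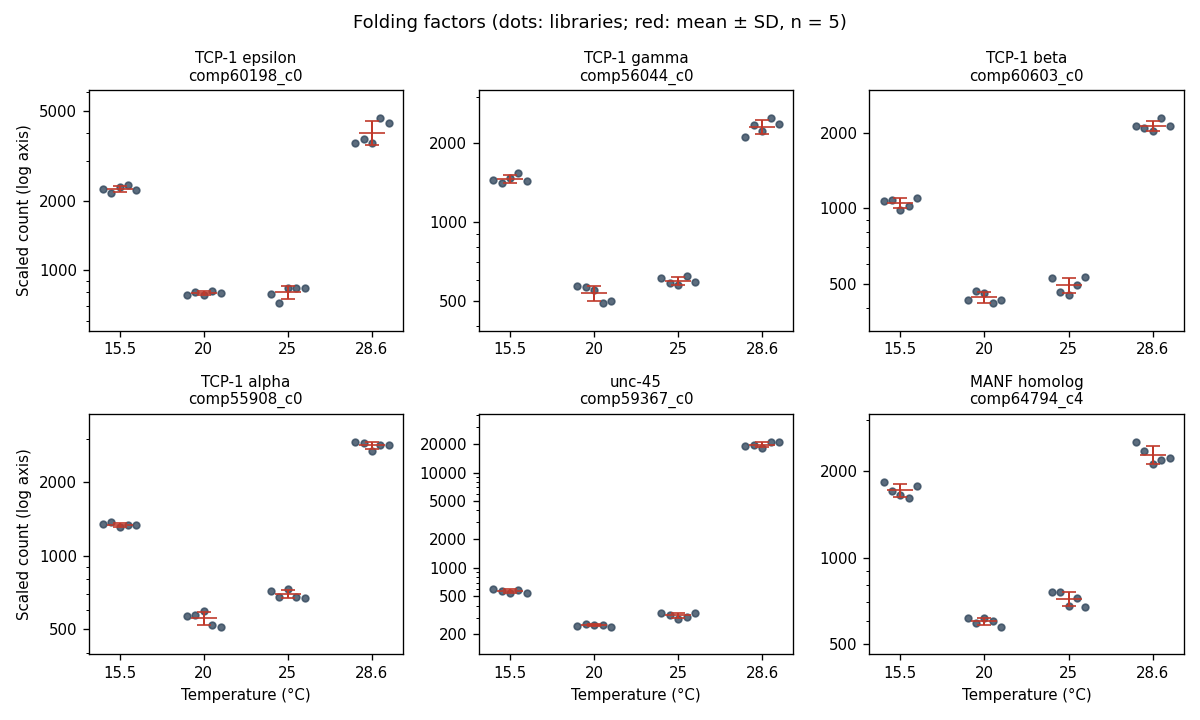
Scaled counts (y axis, log scale) of the 4 TCP-1 subunits, unc-45 and the MANF homolog by temperature (°C, x axis), with a dot for each library and the mean ± SD of 5 libraries in red. Epsilon lay between 3608 and 4631 at 28.6°C, with 2169 to 2370 at 15.5°C, above 720 to 837 at the middle temperatures, and unc-45 reached 18150 to 21087 at 28.6°C.

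A pair of other folding factors had the same shape, as the rule required, but unlike heights. Unc-45 homolog B (comp59367_c0), a chaperone of the myosin head, had 597, 570, 547, 585 and 538 scaled counts at 15.5°C, then 244, 258, 252, 252 and 241 at 20°C, 338, 319, 287, 301 and 335 at 25°C, and 19112, 19504, 18150, 21087 and 20780 at 28.6°C. No libraries of any pair of temperatures overlapped, and the level at 15.5°C, though above the middle, was far below that at 28.6°C. The log2 fold change at 28.6°C against 15.5°C was 5.14 ± 0.05 (SE, edgeR, adjusted p = 2.68e-34), the highest among the members. Its log2 fold change at 25°C against 20°C was 0.33 ± 0.06 (adjusted p = 2.42e-05). Only 2.20% of its counts were unique to a contig, and these averaged 11.6 scaled counts at 15.5°C, then 5.90 at 20°C, 7.69 at 25°C and 433 at 28.6°C, which is the same order of temperatures, but with these few counts the difference at 25°C against 20°C was not called (0.35, adjusted p = 0.387). The homolog of mesencephalic astrocyte-derived neurotrophic factor (MANF, comp64794_c4) is a protein of the endoplasmic reticulum, also secreted, that is induced when proteins misfold there. It averaged 1715 ± 89.8 scaled counts at 15.5°C, then 600 ± 16.6 at 20°C, 717 ± 41.3 at 25°C and 2277 ± 161 at 28.6°C (SD, n = 5 each). It was higher by 0.43 ± 0.05 on the log2 scale at 28.6°C than at 15.5°C (edgeR, adjusted p = 7.58e-09) and by 0.25 ± 0.06 at 25°C than at 20°C (adjusted p = 5.19e-04). Its reads were divided over 20 contigs, and the counts unique to a contig, which averaged 493, 161, 199 and 646 from 15.5 to 28.6°C, kept the shape.

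The member with the largest gap, 1.68, was comp58617_c1, which has no annotation but belongs to the same Trinity component (a group of contigs linked by shared sequence) as heat shock 70 kDa protein cognate 3, the chaperone of the endoplasmic reticulum set aside above. It had 595, 478, 589, 662 and 505 scaled counts at 15.5°C, then 158, 160, 170, 195 and 175 at 20°C, 203, 172, 180, 159 and 177 at 25°C, and 576, 675, 641, 597 and 530 at 28.6°C. The extremes overlapped with each other, as did the middle temperatures. Its log2 fold change at 28.6°C against 15.5°C was 0.13 ± 0.07 (SE, edgeR, adjusted p = 0.128), and it turned to -0.04 when counts were scaled by library size only. It was called higher at 28.6°C without replicate 4 at 15.5°C (0.18, adjusted p = 0.0320) and without replicate 5 at 28.6°C (0.18, adjusted p = 0.0397). It was 0.06 ± 0.10 at 25°C against 20°C (adjusted p = 0.634). Its counts were between 5.07% and 6.58% of those of the cognate 3 subcomponent at 15.5°C, then 5.32% and 7.61% at 20°C, 5.25% and 6.40% at 25°C, and 4.30% and 5.51% at 28.6°C. Whether both are pieces of the same transcript was not tested.

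The second group of named members, the nucleolar factors, was lower at 28.6°C than at 15.5°C. Nucleolar protein 6 (comp56037_c0), which in yeast and human acts in the processing of the small subunit's ribosomal RNA, had 165, 170, 169, 181 and 179 scaled counts at 15.5°C, then 48.7, 41.4, 38.5, 42.7 and 36.6 at 20°C, 33.2, 40.9, 47.7, 48.6 and 42.7 at 25°C, and 108, 90.0, 94.3, 115 and 88.7 at 28.6°C. The middle temperatures overlapped, and each library at 28.6°C lay between them and the libraries at 15.5°C. Protein AATF (comp56623_c0), in human a nucleolar protein of the same pathway, averaged 123 ± 12.5 scaled counts at 15.5°C, then 22.1 ± 5.60 at 20°C, 28.9 ± 5.83 at 25°C and 65.3 ± 10.8 at 28.6°C (SD, n = 5 each). The cell growth-regulating nucleolar protein (comp59653_c0), in human and mouse a factor of ribosome assembly, averaged 118 ± 7.52, 25.6 ± 3.04, 36.7 ± 7.23 and 79.3 ± 9.74 in the same order. By their means all 3 were lowest at 20°C, with 25°C nearly the same in nucleolar protein 6.

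All 3 were lower at 28.6°C than at 15.5°C by edgeR's quasi-likelihood test, with a log2 fold change of -0.77 ± 0.08 for nucleolar protein 6 (SE, adjusted p = 5.71e-10), -0.88 ± 0.11 for AATF (adjusted p = 3.13e-08) and -0.54 ± 0.09 for the growth-regulating protein (adjusted p = 7.02e-06). These calls were kept in each of 33 alternative analyses. Between 25°C and 20°C only the growth-regulating protein was called among them, at 0.42 ± 0.14 (edgeR, adjusted p = 0.0246). The call was lost without replicate 3 at 25°C (0.31, edgeR, adjusted p = 0.145) and without the 2 libraries rich in ribosomal-like counts (0.39, edgeR, adjusted p = 0.0609). Without the long library set, which left 1 library at 25°C, the log2 fold change was 0.44. All 3 are single contigs. Among nucleolar annotations outside the members, looked up after the values had been seen, the nucleolar protein 14 homolog (comp62753_c0) had a gap of 0.69 and fell by 1.03 ± 0.09 on the log2 scale at 28.6°C against 15.5°C. Fibrillarin (comp58229_c1) had a gap of 0.18 and a log2 fold change of -1.46 ± 0.06. The U3 protein IMP3 (comp53892_c0) went the other way, at 1.01 ± 0.10 with a gap of 0.28. Nucleolar and coiled-body phosphoprotein 1 (comp60799_c1) had a gap of -0.56, with 811 scaled counts at 28.6°C and 1207 and 1163 at 20°C and 25°C, so that not every nucleolar annotation shared the members' shape.

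Isoleucine tRNA ligase (comp54870_c0), the enzyme that charges tRNA with isoleucine, had 600, 617, 634, 602 and 616 scaled counts at 15.5°C, then 235, 211, 228, 199 and 194 at 20°C, 149, 170, 174, 152 and 144 at 25°C, and 471, 465, 424, 465 and 426 at 28.6°C. No libraries of different temperatures overlapped, and 25°C was the lowest. Its log2 fold change was -0.42 ± 0.05 at 28.6°C against 15.5°C (SE, edgeR, adjusted p = 4.36e-08) and -0.44 ± 0.07 at 25°C against 20°C (adjusted p = 2.72e-06). The second of these was -0.07 (adjusted p = 0.472) with scaling by library size only, under which the median of all subcomponents moved to 0.35.

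**Figure D3:**
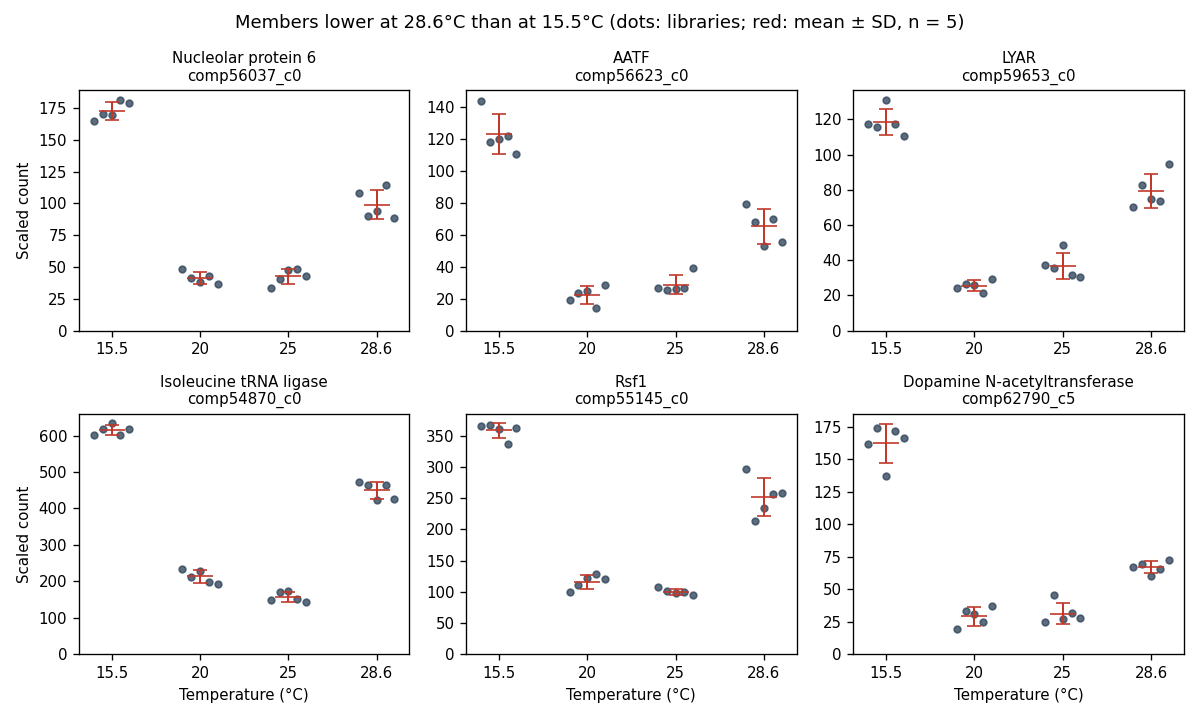
Scaled counts (y axis, linear, starting at 0) of 6 members lower at 28.6°C than at 15.5°C by temperature (°C, x axis), with a dot for each library and the mean ± SD of 5 libraries in red. Nucleolar protein 6 lay between 165 and 181 at 15.5°C, 33.2 and 48.7 at the middle temperatures, and 88.7 and 115 at 28.6°C.

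In some members the estimated counts placed the high level at each extreme on different contigs. Where few counts are unique to a contig, this division rests on how the counting program shared out reads. Rsf1 (comp55145_c0), an RNA-binding protein that represses splicing in *Drosophila*, averaged 358 ± 12.5 scaled counts at 15.5°C, then 116 ± 11.1 at 20°C, 100 ± 4.86 at 25°C and 252 ± 31.2 at 28.6°C (SD, n = 5 each). Its contig seq1 held 88.2% of these counts at 15.5°C, then 53.6% at 20°C, 28.3% at 25°C and 21.3% at 28.6°C, and seq2 held the rest. On its own, seq1 was high only at 15.5°C (316, 62.2, 28.4 and 53.7 from 15.5 to 28.6°C), and seq2 increased throughout (42.4, 53.8, 71.7 and 198), so that neither contig met the rule. The sum was lower at 28.6°C than at 15.5°C (log2 fold change -0.49 ± 0.06, edgeR, adjusted p = 7.44e-08). Counts unique to a contig, 59.3% of the total, gave 0.27 (edgeR, adjusted p = 0.00508). Of the counts of seq1 43.15% were unique, and of those of seq2 82.76%. Unique counts thus weigh seq2 more, and the direction of the sum rests on shared reads. At 25°C against 20°C its log2 fold change of -0.21 ± 0.09 (adjusted p = 0.0488) was called in the analysis as designed and lost in 23 of 33 alternatives, and it turned to 0.16 with scaling by library size only and 0.09 with unique counts.

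Dopamine N-acetyltransferase (comp62790_c5), which in insects acetylates dopamine and related amines, had 162, 174, 137, 172 and 166 scaled counts at 15.5°C, then 19.2, 33.5, 31.0, 24.9 and 37.4 at 20°C, 24.5, 45.3, 27.2, 31.4 and 28.2 at 25°C, and 67.2, 69.3, 60.3, 66.0 and 72.6 at 28.6°C. The extremes did not overlap with the middle, and 15.5°C lay far above 28.6°C. Its log2 fold change at 28.6°C against 15.5°C, -1.24 ± 0.10 (SE, edgeR, adjusted p = 4.38e-12), was the lowest of the members. Contig seq2 held 91.2% of its counts at 15.5°C and 39.0% at 28.6°C, again with neither contig past the rule, and only 12.0% of the counts were unique. The unannotated comp65075_c0 was alike, with seq1 and seq2 averaging 153 and 127 scaled counts at 15.5°C and 64.5 and 62.1 at 28.6°C, and seq3 and seq4 averaging 12.6 and 24.1 at 15.5°C and 99.3 and 86.9 at 28.6°C. None of its counts was unique to a contig.

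**Figure D4:**
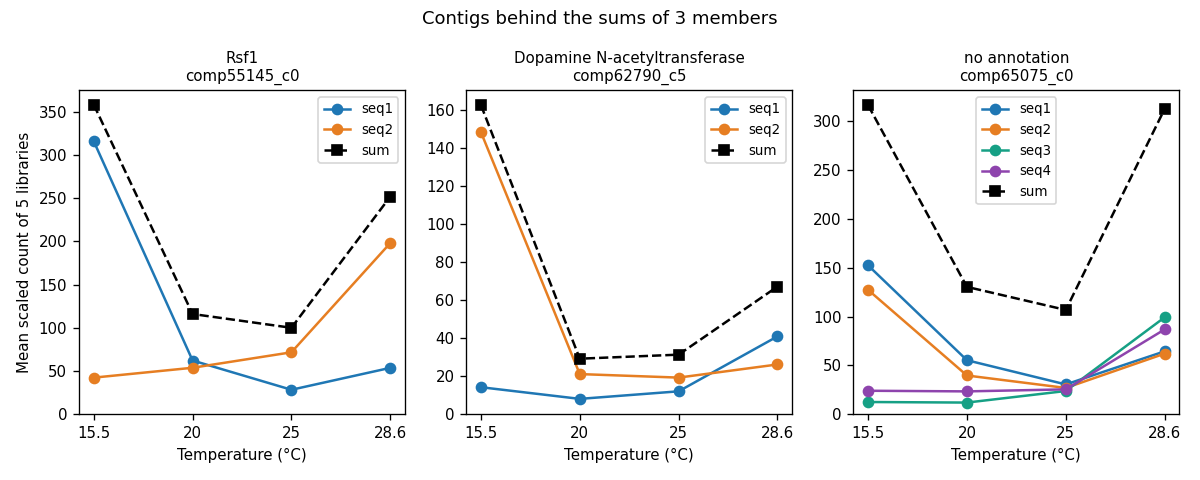
Mean scaled count of 5 libraries (y axis) for each contig of Rsf1, dopamine N-acetyltransferase and comp65075_c0 by temperature (°C, x axis), with their sum as a dashed black line. In Rsf1 the contig seq1 fell to 53.7 at 28.6°C, against 316 at 15.5°C, while seq2 reached 198 at 28.6°C, against 42.4 at 15.5°C.

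Over all members, 29 were single contigs (50.9%, against 30.6% of all 6990 subcomponents of this level) and 28 held several. Of these 28, 19 had a contig that met the rule by itself, 8 had a different leading contig at different temperatures and 5 had different leading contigs at 28.6°C and 15.5°C. The share of counts unique to a contig was over 95% in 32 members and under 10% in 15, and in those 15 the levels of single contigs rest on the division of shared reads by the counting program. The longest contig of a member had a median of 2210 bases, against 2468 over all 6990.

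A further pair of named members with low shares of unique counts were much higher at 28.6°C. Muscle-specific protein 20 (comp64509_c1), in *Drosophila* a calponin-like protein of muscle, had 13440, 13371, 12919, 13551 and 12874 scaled counts at 15.5°C, then 7039, 7077, 7041, 5975 and 6556 at 20°C, 4677, 4634, 4288, 4148 and 4484 at 25°C, and 64911, 64149, 58930, 70053 and 65245 at 28.6°C. No libraries of different temperatures overlapped. Its log2 fold change was 2.31 ± 0.05 at 28.6°C against 15.5°C (SE, edgeR, adjusted p = 8.54e-27) and -0.61 ± 0.05 at 25°C against 20°C (adjusted p = 3.35e-12), and the second of these turned to 0.06 (adjusted p = 0.759) in counts unique to a contig, which were 2.65% of its total. The dual specificity protein phosphatase 23 subcomponent (comp64553_c7), named for a small phosphatase, averaged 399 ± 4.79 scaled counts at 15.5°C, then 189 ± 20.4 at 20°C, 190 ± 16.8 at 25°C and 1484 ± 74.5 at 28.6°C (SD, n = 5 each). Its log2 fold change at 28.6°C against 15.5°C was 1.92 ± 0.06 (edgeR, adjusted p = 3.79e-23). The 1.37% of its counts that were unique to a contig averaged 9.0 at 15.5°C, then 12.2 at 20°C, 8.18 at 25°C and 3.60 at 28.6°C. They reversed the direction (-0.94, edgeR, adjusted p = 0.00619). These came mostly from seq8, a contig of 204 bases with 2.31% of the subcomponent's counts at 15.5°C and 0.205% at 28.6°C. They therefore say little about the sum. Whether the remaining reads were shared only within the subcomponent or also with others was not tested.

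Between the extremes, 15220 subcomponents were tested with all 57 members among them. At an adjusted p below 0.05, 19 members were higher at 28.6°C than at 15.5°C, where 36.4% of all subcomponents were called higher, 19 were lower, where 35.6% were, and 19 were not called. The 38 called members were 66.7% of the 57, against 72% of all subcomponents called either way. The choice favours small differences between the extremes, so nothing is read from this contrast or from that of 2-fold differences below. With a 4-fold change also required, 3 members were higher (3.41% of all subcomponents) and 0 lower (2.56%). The median log2 fold change was -0.00 in the members and 0.01 in all subcomponents, and the members ran between -1.24 and 5.14. A 2-fold difference either way was found in 7 members (12.3%), against 23.5% of all subcomponents. These 7 were unc-45, comp53969_c0, muscle-specific protein 20, the phosphatase and TCP-1 alpha and beta, all higher, and the acetyltransferase, which was lower. In the 19 members not called, the log2 fold change was between -0.13 and 0.18 with standard errors between 0.04 and 0.09. Scaled by library size only, the median of all subcomponents moved to -0.15 and that of the members to -0.17, with 16 members higher and 31 lower, so the directions given are relative to the bulk of genes.

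Between the middle temperatures, 9 members were higher at 25°C than at 20°C (21.4% of all subcomponents were), 13 were lower (23.8% were) and 35 were not called. Either way 22 were called, 38.6% of the 57, against 45.2% of all subcomponents. With a 4-fold change required, none was called by edgeR (0.401% of all subcomponents were higher and 0.828% lower). The members ran between -0.61 and 0.63 on the log2 scale with a median of -0.03, against -0.01 over all subcomponents. None differed 2-fold, against 6.60% of all subcomponents. The choice favours small differences between the middle temperatures too, so nothing is read from these shares. Scaled by library size only, the median of all subcomponents moved to 0.35 and 39 members were higher and 2 lower. Leaving out the long library set left 1 library at 25°C and 4 at 20°C, so no calls are given for it. Across both contrasts 6 members were higher in each, namely TCP-1 alpha, beta and gamma, MANF, unc-45 and comp53969_c0. A further 4 were lower in each, and 11 were called in neither. The remaining combinations had calls in opposite directions. They were 3 members higher at 28.6°C and lower at 25°C, among them muscle-specific protein 20, and 1 with the reverse, the growth-regulating nucleolar protein. The shares of all subcomponents with each combination were not counted, so nothing is read from these numbers. Many of the calls at 25°C were also fragile. Of 13 among the named genes, 2 were kept in every alternative analysis.

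**Figure D5:**
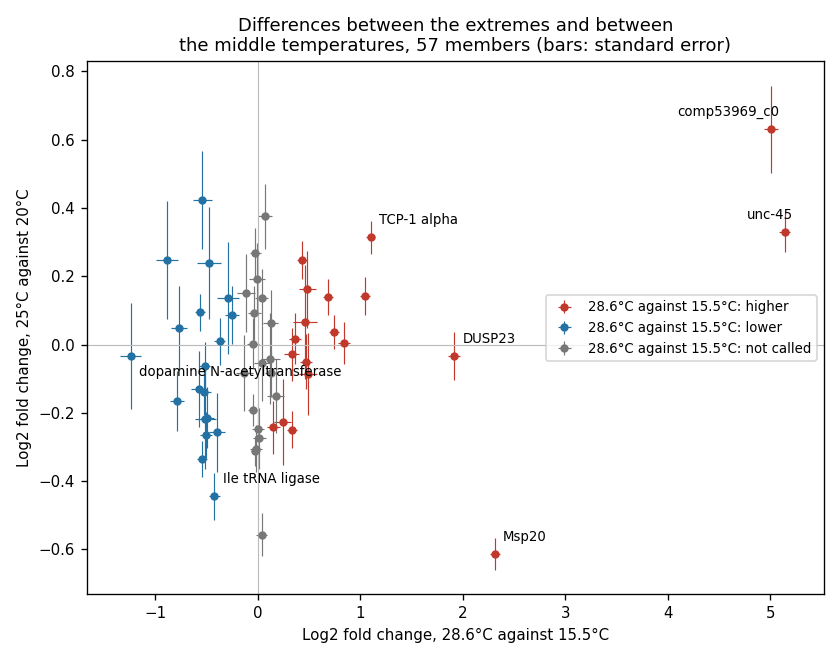
Log2 fold change at 25°C against 20°C (y axis) and at 28.6°C against 15.5°C (x axis) for the 57 members, with bars of 1 standard error, coloured by the call at 28.6°C against 15.5°C. Unc-45 and comp53969_c0 stand apart at 5.14 and 5.01 on the x axis, while the y axis covers only -0.61 to 0.63.

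Among the 43 members without an annotation, 11 were higher at 28.6°C than at 15.5°C, 13 lower and 19 not called. Every member not called between the extremes was thus without a name. Names exist only for transcripts chosen by how much they changed in these libraries, so nothing is read from this. The median gap of the 43 was 0.94. The outstanding one was comp53969_c0, a single contig, with 97.8, 112, 115, 103 and 105 scaled counts at 15.5°C, then 29.6, 31.6, 23.6, 24.9 and 33.5 at 20°C, 42.7, 55.2, 40.3, 41.9 and 57.2 at 25°C, and 3748, 3245, 3186, 3422 and 3570 at 28.6°C. No libraries of different temperatures overlapped. Its log2 fold change was 5.01 ± 0.07 at 28.6°C against 15.5°C (SE, edgeR, adjusted p = 6.04e-31) and 0.63 ± 0.13 at 25°C against 20°C (adjusted p = 1.45e-04). Without the long library set, which left 1 library at 25°C, the log2 fold change at 25°C against 20°C was 0.42.

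Other unannotated members had smaller differences between the extremes. The single contig comp62151_c1 had 115, 115, 107, 127 and 104 scaled counts at 15.5°C, then 48.7, 44.4, 42.2, 24.9 and 41.3 at 20°C, 34.8, 53.0, 46.8, 31.4 and 41.8 at 25°C, and 115, 129, 130, 112 and 121 at 28.6°C. Neither tested contrast was called (0.12 ± 0.09, adjusted p = 0.216, and -0.04 ± 0.13, adjusted p = 0.837, both edgeR). In comp59990_c0 the means were 406, 167, 142 and 445 from 15.5 to 28.6°C. Its log2 fold change at 28.6°C against 15.5°C was 0.15 ± 0.06 (edgeR, adjusted p = 0.0235), a call that was lost in 12 of 33 alternatives and turned to -0.02 with scaling by library size only. That at 25°C against 20°C was -0.24 ± 0.08 (adjusted p = 0.0117) and turned to 0.13 under the same scaling. In comp65075_c0 the difference between the extremes was 0.02 ± 0.07 (adjusted p = 0.834), while 25°C was lower than 20°C (-0.27 ± 0.09, adjusted p = 0.0121), which turned to 0.10 with library size only. In comp64909_c0 the means were 1035, 460, 389 and 1282, with 28.6°C higher than 15.5°C by 0.33 ± 0.05 on the log2 scale (adjusted p = 3.08e-07) and 25°C lower than 20°C (-0.25 ± 0.05, adjusted p = 3.25e-04), which turned to 0.13 with library size only.

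In comp65221_c1 the means were 150, 63.8, 53.0 and 176 from 15.5 to 28.6°C, and 28.6°C was higher than 15.5°C by 0.24 ± 0.08 on the log2 scale (edgeR, adjusted p = 0.0114). In comp55163_c0 they were 101, 26.1, 31.4 and 80.5, and 28.6°C was lower (-0.29 ± 0.11, adjusted p = 0.0198). The call of comp65221_c1 was lost in 5 of 33 alternatives, with library size only (0.07, adjusted p = 0.427), no filter (0.16, adjusted p = 0.199), effective counts (0.21, adjusted p = 0.125), the library set in the model (0.15, adjusted p = 0.152) and the long library set left out (0.12, adjusted p = 0.349). That of comp55163_c0 was lost in 3, with effective counts (-0.27, adjusted p = 0.298), without the long library set (-0.32, adjusted p = 0.0755) and without replicate 2 at 28.6°C (-0.25, adjusted p = 0.0571). By contrast, comp55227_c0, with 403, 128, 117 and 229 scaled counts, was lower at 28.6°C than at 15.5°C (log2 fold change -0.79 ± 0.07, adjusted p = 1.03e-11), a call kept in all 33 alternatives. At the lower edge of the rule, comp61343_c3 averaged 196 and 219 at the extremes and at most 117 between them, and comp60945_c0 had means of 167, 84.1, 92.3 and 170, and both were called in neither contrast. The largest difference between the middle temperatures among unannotated members that were lower at 25°C, picked after the values were seen, was that of comp65059_c1, at -0.56 (adjusted p = 1.29e-08), with 343 scaled counts at 20°C and 235 at 25°C.

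Beyond comp58617_c1 and heat shock 70 kDa protein cognate 3, 5 other members shared a Trinity component with a subcomponent of this level, and in none of those did the partner have a gap of 0.8. The closest was comp61103_c1, with a gap of 0.36, beside the member comp61103_c0, whose gap was 1.03.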

How the data were processed

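The members and gene lists were chosen with earlier results of these data known. The authors trimmed reads with Trim Galore 0.3.0, joined overlapping pairs, mapped them with Bowtie2 2.0.6 to their Trinity assembly of 135858 contigs and counted with eXpress 1.5.1. The deposited files give per contig an estimated count, in which eXpress divides reads shared between contigs by probability, an effective count adjusted for length bias, and a whole-number count of reads unique to the contig. The deposited table of differentially expressed transcripts served only for names. It holds the authors' centred log2 values, which were not used. Reads and any contig sequences are not analysed here, so no sequence is shown.

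Estimated counts were summed per subcomponent, without a ribosomal-like one of 10 contigs, and scaled by the median of ratios over the 18621 subcomponents above 0 in all 20 libraries. These are the scaled counts of the text. For tests, the sums were rounded, kept at 2 CPM or more in at least 4 libraries, normalized by TMM and fitted in edgeR 4.0.16 (R 4.3.3) by quasi-likelihood with a coefficient per temperature. Fold changes used a prior count of 2, P values were adjusted by Benjamini and Hochberg over all 15220 subcomponents, and the call threshold was 0.05. Standard errors are the log2 fold change over the square root of F. A member was named if it was annotated, among the 10 largest gaps, among the 3 highest or 3 lowest called fold changes at 28.6°C against 15.5°C, or at the edge of the rule (2 members and 2 non-members). As alternatives, DESeq2 1.42.0 and a likelihood ratio test in edgeR were run, with other scalings and filters, effective and unique counts, a 4-fold criterion, only the temperatures compared, the replicate number or the library set in the model, and libraries left out. Leaving out the long library set was added after the data had been seen. On simulated counts of the 15220 subcomponents for 28.6°C against 15.5°C, 100% of 2-fold and 100% of 4-fold changes (100 genes each) were recovered, with 6 false calls. The changed genes were drawn only from those with a mean count of at least 100. Smaller changes, library sets and shared reads were not simulated, so the recovery does not extend to them. Tables were made with Python 3.11.15, numpy 2.4.6 and pandas 2.3.3, and figures with matplotlib 3.10.9. The totals of 6756103 to 14236152 estimated counts per library set the precision, which is lowest in replicate 4 at 20°C.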

Additional observations from a re-analysis of the deposited data

Results flagged for a closer look

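Among 25 named members, 100 sets of 5 libraries were examined for a library far from the other 4, and 4 sets had one, where chance gives about 1 in 20. Rsf1 (comp55145_c0) had 336.5 scaled counts in replicate 4 at 15.5°C, below the other libraries at 360.4 to 366.7. AATF (comp56623_c0) had 39.27 in replicate 5 at 25°C, above 25.4 to 26.9. In comp65075_c0, replicate 5 at 28.6°C had 289.4, below 318.3 to 319.2. In comp64909_c0, replicate 3 at 20°C had 405.8, below 463.1 to 483.4. All 4 stayed on the same side of the gap between extremes and middle as the other libraries of their temperature.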

How the results depend on the processing

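The number of members was 31 with a pseudocount of 50, 21 with a gap of at least 1.0, 140 with a gap of at least 0.6, 103 with scaling by library size and 106 with effective counts. Of the 103 and the 106, 52 and 47 were among the 57. With 1 library left out it was 51 to 61. At 28.6°C against 15.5°C, a 4-fold criterion left 3 members called (3 higher and 0 lower), and scaling by library size made 31 lower. At 25°C against 20°C, 22 members were called. Scaling by library size gave 41 (39 higher and 2 lower), no filter 14 (5 lower), unique counts 13 (6 lower) and the 4-fold criterion 0 (0 higher and 0 lower). Calls without the long set are not given for this contrast, since 1 library remained at 25°C. Leaving out 1 library gave 37 to 40 calls between the extremes (18 to 21 higher and 18 to 19 lower) and 19 to 22 between the middle temperatures (7 to 9 higher and 11 to 14 lower). The causes were not tested.

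Of the named genes' differences at 28.6°C against 15.5°C, direction changed with unique counts in comp64553_c7 (-0.94) and comp55145_c0 (0.27) and with library size in comp58617_c1 (-0.045) and comp59990_c0 (-0.016). At 25°C against 20°C it changed with unique counts in comp64509_c1 (0.057) and comp55145_c0 (0.094), and with library size in comp55145_c0 (0.16), comp59990_c0 (0.13), comp65075_c0 (0.10) and comp64909_c0 (0.13). With the replicate number as a block, 21 members were higher and 19 lower at 28.6°C, and 9 higher and 12 lower at 25°C. The numbers were not taken to pair the libraries, since the labels give no shared source and not every pair correlated over 0.1. Same-numbered libraries of 2 temperatures had correlations of their deviations between -0.12 and 0.33 with a median of 0.10, against -0.03 for other numbers, 16 of 30 were over 0.1, and 12 of 20 libraries correlated best with their own number, a hint of shared variation from the data and not from the design. Depth limits the values at 20°C most, where 2 libraries held 5484995 and 2485595 counts.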
